A study of Mus musculus with 12 samples.

Results

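Mouse acute myeloid leukaemia cells taken after treatment with CpG1668 alone were compared with cells taken after doxycycline alone. The compared libraries were chosen by the treatment in their labels, 3 labelled CpG1668 and 3 labelled Dox, which made 6 of the 12 libraries of the study. The other 6 libraries, 3 of CpG1668+Dox and 3 of PBS, were used for the estimate of spread and as side-by-side levels. All groups held the same cells, CMM-tetON-shStat3, which carry a doxycycline-inducible hairpin RNA against Stat3 and are marked by GFP and mCherry. The cells had been engrafted through a vein into NSG mice, which lack T, B and NK cells of their own. Intravenous treatment started once leukaemia cells made up about 1% of the blood. The labels disagree on the schedule, which is 6 daily treatments in one field and 3 treatments on alternate days in another. Spleens were taken 1 day after the last treatment, and GFP and mCherry double-positive cells were sorted before RNA sequencing. Doxycycline was given in no group without the hairpin, so an action of the drug and an action of the hairpin cannot be told apart. Whether each library stands for a mouse of its own is not in the labels, so the p-values reflect the spread between libraries, which may be technical.

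CpG1668 is a short DNA oligonucleotide with unmethylated CpG motifs. Such DNA is sensed in endosomes by TLR9, which signals through MyD88 to NF-kappaB and to interferon regulatory factors. STAT3 is a transcription factor activated by cytokine receptors through Janus kinases, and in myeloid cells it is known for restraining inflammatory output and antigen presentation. Immature myeloid cells on their way to neutrophils make the enzymes of the primary granules first and the proteins of the later granules afterwards, whereas monocytes gain Fc receptors, chemokine receptors and matrix proteins.

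Values are RPKM, reads per kilobase of gene, scaled to the mapped reads of each library. Differences are on the log2(RPKM + 1) scale, CpG1668 minus Dox, so a positive value is higher with CpG1668. The added 1 understates the fold of genes with low RPKM. A gene was called at a Benjamini-Hochberg adjusted p under 0.05 from limma, over the 12139 genes whose mean over the 6 libraries reached 1 RPKM.

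The transcript that the hairpin targets was not lower in the libraries labelled Dox than in those labelled CpG1668. Stat3 (ENSMUSG00000004040.16, mm10 chromosome 11, 100885098 to 100939540, minus strand) had 17.6, 18.5 and 18.4 RPKM in the CpG1668 libraries, against 18.8, 19.1 and 18.8 RPKM in the Dox libraries. The Dox libraries were all slightly above the CpG1668 libraries. The log2 difference was -0.05, with a 95% interval of -0.13 to 0.02, and was not called (limma adjusted p = 0.486). Since CpG1668 is itself a treatment, these values do not show whether Stat3 in the Dox libraries differed from its level in PBS. A transcript level does not show the protein or its activity, and the comparisons below are between libraries as labelled.

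The estimated depth of all 12 libraries was 30450000 to 35030000 reads, at which 3 reads on a gene of 1 kb give 0.086 to 0.099 RPKM. Pearson r across genes was 0.994 to 0.996 within CpG1668, 0.993 to 0.995 within Dox and 0.992 to 0.994 between them. Dox 1 stood apart: its best correlated library was CpG1668 3, and on the second principal component of the 6 libraries it lay at -13.0, with the other 5 between -4.34 and 7.61. Mast cell, basophil and erythroid genes were high in these cells, which are labelled AML. Fcer1a, the alpha chain of the IgE receptor, had 592 to 635 RPKM in CpG1668 and 667 to 807 RPKM in Dox. The erythroid and megakaryocyte regulator Gata1 had 89.2 to 94.7 RPKM in CpG1668 and 95.7 to 105 RPKM in Dox. The T cell gene Cd3e was at 0 in all CpG1668 libraries and at most 0.00777 RPKM in Dox. Xist stood at 46.2 to 67.4 RPKM in CpG1668 and 39.3 to 54.2 RPKM in Dox, beside the Y-linked gene Eif2s3y at 1.14 to 1.25 RPKM in CpG1668 and 0.844 to 0.977 RPKM in Dox. Eif2s3y did not overlap between the groups and Xist did. The part of other cells in the differences below was not tested.

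Few genes were called between CpG1668 and Dox, and most called genes differed by less than 2-fold. At an unadjusted p under 0.05 by limma there were 1848 genes, 452 higher and 1396 lower with CpG1668. Called higher with CpG1668 were some proteases and the myeloperoxidase of the primary granules, 6 of 26 measured monocyte genes and the Fc receptors Fcgr1 and Fcgr4. Called lower with CpG1668 were 4 of 9 measured MHC class II genes, the protease inhibitor Serpinb1a and 4 of 32 measured integrated stress response genes. Cytokine receptor genes were called in both directions. Of 12139 genes, 189 were called (1.56%), with 42 higher (0.346%) and 147 lower (1.21%) with CpG1668. The ratio of group means reached 2-fold in 12 of the higher and 9 of the lower genes. The median size was 0.58 among the higher and 0.28 among the lower genes, while the median log2 difference over all genes was -0.02. In 2367 genes (19.5%) the 3 CpG1668 and the 3 Dox libraries did not overlap, and all 189 called genes were among them. After quantile normalization 158 genes were called, 56 higher and 102 lower, so that higher calls made up 35.4% of the calls, against 22.2% in the fit reported here. Without Dox 1 the calls were 176, with 27 higher and 149 lower, and without CpG1668 1 they were 31, with 6 higher and 25 lower. Of the 189 calls, 152 were kept under median-of-ratios scaling, 139 under quantile normalization, 73 without a filter on low values and 58 in a fit of the 6 libraries alone. All 189 genes kept their sign in each alternative in which they were tested.

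**Figure D1:**
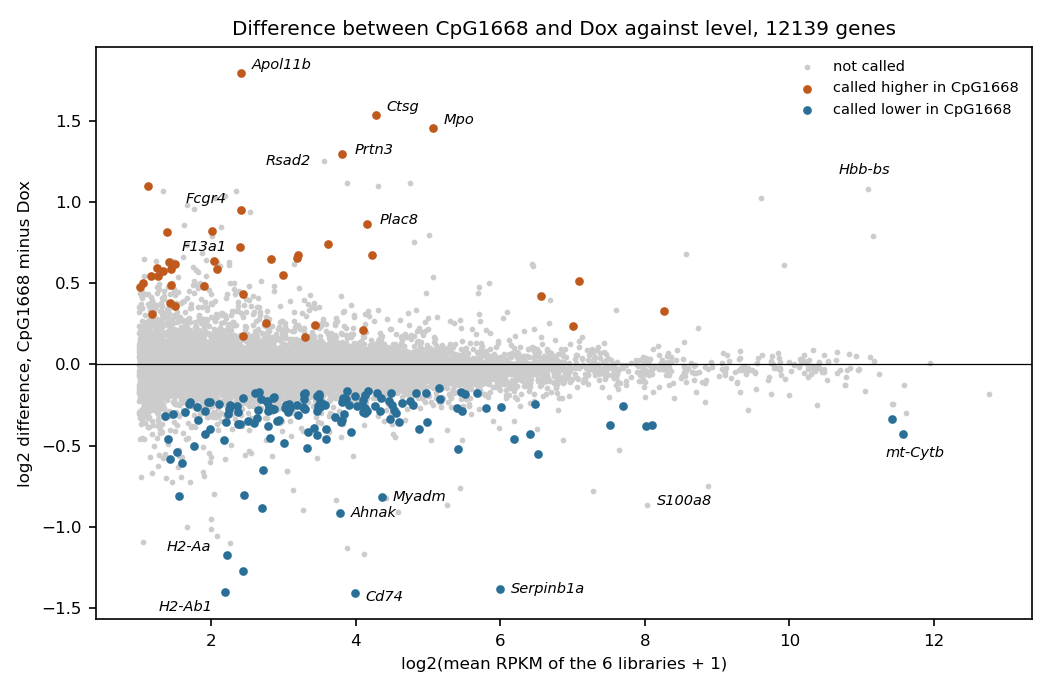
The log2 difference (CpG1668 minus Dox, vertical axis) of each of 12139 genes is plotted against log2 of its mean RPKM plus 1 over the 6 libraries. The 42 genes called higher and the 147 called lower are coloured, and S100a8, Hbb-bs and Rsad2 lie far from 0 without being called.

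The list of primary granule genes, which centres on the proteases and peroxidase that promyelocytes store, had calls in both directions. Of 11 measured of 13 listed, 4 were called higher (Ctsg, Mpo, Prtn3 and Ctsc), 2 lower (Serpinb1a and Hdc) and 5 not called. Among all genes 0.346% were called higher and 1.21% lower. The called proteases and the peroxidase were all higher. The 2 lower genes encode an inhibitor of such proteases (Serpinb1a) and the enzyme that makes histamine (Hdc). Hdc is also on the mast cell and basophil list. The median log2 difference of the list was 0.79, against -0.02 over all genes. Ctsg (ENSMUSG00000040314.2, mm10 chromosome 14, 56099881 to 56102574, minus strand), the serine protease cathepsin G, had 28.3, 26.6 and 27.8 RPKM in CpG1668, against 6.05, 8.10 and 13.96 RPKM in Dox. All CpG1668 libraries were alike and above every Dox library, and Dox 3 was the highest of the Dox libraries. The Ctsg difference was 1.53 ± 0.26 (standard error, limma adjusted p = 0.0186), a ratio of means of 2.94. Mpo (ENSMUSG00000009350.13, chromosome 11, 87793581 to 87804413, plus strand), myeloperoxidase, had 52.9, 43.2 and 47.2 RPKM in CpG1668, against 13.2, 14.5 and 24.5 RPKM in Dox. The groups did not overlap, and the difference was 1.45 ± 0.25 (limma adjusted p = 0.0194). Prtn3, proteinase 3, averaged 18.8 ± 1.62 RPKM in CpG1668 and 7.38 ± 2.91 RPKM in Dox (SD, n = 3 each), a difference of 1.29 by limma with adjusted p = 0.0327.

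Ctsc, the peptidase that activates these granule proteases, was called with a small difference of 0.21 (limma adjusted p = 0.0469). Elane, neutrophil elastase, had 20.4, 17.5 and 18.6 RPKM in CpG1668 and 5.53, 8.44 and 11.5 RPKM in Dox and was not called. Ms4a3, a marker of granulocyte and monocyte progenitors, and Gstm1, a glutathione transferase, were likewise apart without being called, with differences of 1.06 and 0.79. Leaving out any CpG1668 library or Dox 2 ended the calls of Ctsg and Mpo, with limma adjusted p of 0.052 to 0.082 for Ctsg and 0.053 to 0.092 for Mpo, and so did the fit without a filter (0.081 for Ctsg and 0.084 for Mpo). The calls of Prtn3 and Ctsc were lost without any CpG1668 library, Dox 1 or CpG1668+Dox 1, among others, with adjusted p up to 0.13 for each. Over the 12 libraries left out in turn, the list's count of higher calls ran from 0 (without any CpG1668 library) to 7 (without CpG1668+Dox 3). Both groups stood well above PBS, where Ctsg averaged 1.16 RPKM and Mpo 2.26 RPKM, and below CpG1668+Dox, where Ctsg averaged 46.9 RPKM and Mpo 86.9 RPKM.

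Promoters of 3 called granule genes are shown, out of 7 searched, of which Elane, Ms4a3 and Gstm1 were not called. PU.1, a myeloid regulator of the Ets family, is known to bind sites with the core GAGGAAG. In RefSeq windows (GRCm38.p6, 250 bases before to 50 after the start site) the letters GAGGAAG, on either strand, were in 13.63% of 32851 promoters. They were in 5 of the 7 granule genes searched (Ctsg, Mpo, Prtn3, Elane and Ctsc), which were chosen after their values were seen, and were not found in the windows of Ms4a3 and Gstm1. A match in letters is not a measured site. The stretches below come from chr14:56102749-56102824 (minus strand, motif 216 bases before the start) for Ctsg, chr11:87793534-87793578 (plus strand, 247 bases before) for Mpo and chr10:79879537-79879613 (plus strand, 95 bases before) for Prtn3, with GAGGAAG in capitals. The Mpo stretch holds the same letters once more in lower case.
Ctsg: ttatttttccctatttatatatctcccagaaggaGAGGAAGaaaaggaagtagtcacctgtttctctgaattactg
Mpo: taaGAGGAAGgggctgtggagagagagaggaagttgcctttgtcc
Prtn3: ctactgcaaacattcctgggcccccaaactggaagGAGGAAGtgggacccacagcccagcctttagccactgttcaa

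**Figure D2:**
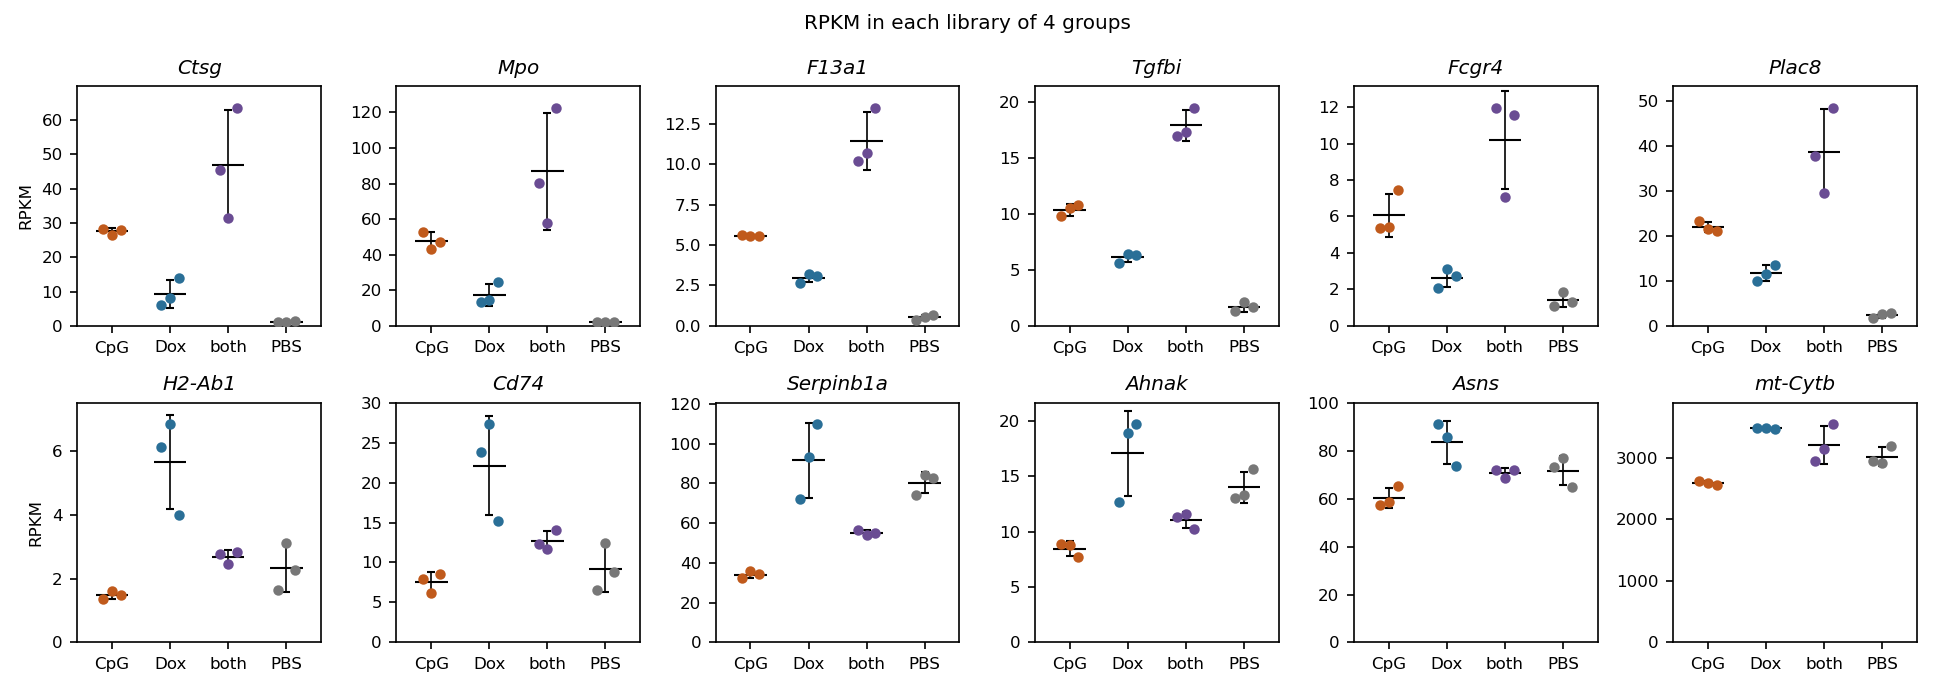
RPKM (vertical axes, from 0) of 12 genes in each library, with CpG1668, Dox, CpG1668+Dox (both) and PBS from left to right; points are libraries, the bar is the mean and the whiskers are 1 SD (n = 3). The upper 6 genes are higher in CpG1668 than in Dox, highest in CpG1668+Dox and lowest in PBS, while the lower 6 are lowest in CpG1668.

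Some monocyte genes were higher with CpG1668. Of 26 measured of 32 listed, 6 were called higher (F13a1, Fcgr1, Tgfbi, Plac8, Ms4a6c and Klf4), 0 lower and 20 not called, with a list median of 0.32. Among all genes 0.346% were called higher. F13a1 (ENSMUSG00000039109.16, chromosome 13, 36867178 to 37050244, minus strand), the catalytic subunit of coagulation factor XIII, had 5.60, 5.57 and 5.53 RPKM in CpG1668, against 2.65, 3.21 and 3.10 RPKM in Dox. The CpG1668 libraries hardly differed among themselves and lay above all Dox libraries. The F13a1 difference was 0.72 ± 0.10 (limma adjusted p = 0.00732). Tgfbi (ENSMUSG00000035493.10, chromosome 13, 56609523 to 56639562, plus strand), a secreted matrix protein, had 9.79, 10.50 and 10.8 RPKM in CpG1668, against 5.64, 6.41 and 6.33 RPKM in Dox. These groups did not overlap either, and the difference was 0.67 ± 0.10 (limma adjusted p = 0.00962). The calls of F13a1 and Tgfbi held without each of the 12 libraries in turn.

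Plac8, a small cysteine-rich protein of myeloid cells, had the largest difference of the called monocyte genes. It averaged 22.02 ± 1.16 RPKM in CpG1668 and 11.7 ± 1.84 RPKM in Dox (SD, n = 3 each), a difference of 0.87 (limma adjusted p = 0.0324). Ms4a6c, a membrane protein of the MS4A family, differed by 0.65 (adjusted p = 0.0327) and the transcription factor Klf4 by 0.36 (adjusted p = 0.0302). Leaving out any of several libraries, among them CpG1668 1, Dox 1 and Dox 3, ended the calls of Plac8, Ms4a6c and Klf4, with limma adjusted p up to 0.13 for Plac8 and Klf4 and 0.14 for Ms4a6c. The calls of Ms4a6c and Klf4 were also lost with the mean of the mature neutrophil genes as a covariate. The list's count ran from 2 to 8 over the 12 omissions. Among members that were not called, the chemokine receptor Ccr2 had a difference of 0.42, the myeloid regulator Irf8 of 0.27 with a 95% interval of 0.06 to 0.48 (limma adjusted p = 0.192), and Lyz2, lysozyme, of -0.21. Irf8 had 1.60, 1.67 and 1.56 RPKM in CpG1668 and 1.09, 1.21 and 1.20 RPKM in Dox, low levels in both. The summed level of 17 macrophage markers was 34.5 to 47.4 RPKM in CpG1668 and 36.2 to 43.5 RPKM in Dox. Limma called 0 of the 10 measured members (3 at an unadjusted p under 0.05, 1 higher and 2 lower). In sorted bulk RNA, more cells of a type and more RNA per cell cannot be told apart.

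Fc receptors for IgG were among the higher genes, with 2 of 11 measured members of the Fc receptor list called higher and 0 lower. Over all genes 0.346% were called higher. Fcgr4, a receptor for IgG2 antibodies in the mouse, had 5.34, 5.40 and 7.43 RPKM in CpG1668, against 2.09, 3.11 and 2.72 RPKM in Dox. Fcgr1, the high-affinity receptor, had 1.90, 1.88 and 1.77 RPKM in CpG1668, against 0.882, 0.837 and 0.955 RPKM in Dox. For both receptors the groups lay apart, and the differences were 0.95 for Fcgr4 (limma adjusted p = 0.0327) and 0.59 for Fcgr1 (0.00953). The Fcgr4 call was lost without any 1 of the 6 compared libraries (adjusted p 0.071 to 0.10) and that of Fcgr1 without CpG1668 1 (0.053). The low-affinity receptor Fcgr3 overlapped between groups and was not called, at 25.2 to 31.9 RPKM in CpG1668 and 21.1 to 25.5 RPKM in Dox.

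Cytokine receptor chains were called in both directions. In the list of growth factor and cytokine receptors 3 of 26 measured members were called higher and 0 lower, and 2 receptors outside it, Il9r and Il12rb2, were called lower. The shares over all genes were 0.346% called higher and 1.21% called lower. Il10ra, the ligand-binding chain of the interleukin-10 receptor, had 5.23, 5.60 and 4.93 RPKM in CpG1668, against 3.25, 4.17 and 3.52 RPKM in Dox (difference 0.43, limma adjusted p = 0.0185). Il4ra, the interleukin-4 receptor alpha chain, had 6.14, 6.25 and 6.73 RPKM in CpG1668, against 5.04, 5.26 and 5.23 RPKM in Dox (0.25). Il6st, gp130, the chain shared by receptors of the interleukin-6 family that signal through STAT3, had 2.04, 2.23 and 1.85 RPKM in CpG1668, against 1.22, 1.37 and 1.42 RPKM in Dox (0.38). None of these receptors overlapped between the groups. Il10ra and Il4ra were the called members of 23 measured STAT3 target genes. Il6st was the only called member of 25 on the STAT and SOCS list, so no STAT, Janus kinase or SOCS gene was called. The Il10ra call was lost without CpG1668 1, CpG1668 2 or Dox 3 (limma adjusted p 0.061 to 0.077), that of Il4ra without any 1 of the 6 compared libraries (0.054 to 0.070) and that of Il6st without any library other than CpG1668+Dox 3 (0.051 to 0.14). The STAT3 feedback inhibitor Socs3 overlapped, at 1.12 to 1.78 RPKM in CpG1668 and 0.863 to 1.72 RPKM in Dox.

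Il9r, the interleukin-9 receptor, was lower with CpG1668, at 24.2, 24.7 and 24.1 RPKM in CpG1668 against 32.7, 31.3 and 33.3 RPKM in Dox (difference -0.40, limma adjusted p = 0.00221). Il12rb2, a chain of the interleukin-12 receptor, differed by -0.28 (adjusted p = 0.00732). Il9r and Il12rb2 were named after their values were seen, and their calls held without each library in turn. The homing receptor Cxcr4 was higher, at 8.77, 8.08 and 8.55 RPKM in CpG1668 against 5.50, 5.77 and 5.13 RPKM in Dox, and its groups lay apart. The Cxcr4 difference of 0.55 (limma adjusted p = 0.0387) lost its call without any 1 of the 6 compared libraries or any PBS library (0.051 to 0.14). Ccl9, a chemokine of myeloid cells, differed by 0.48. Among the omitted libraries only CpG1668 1 ended its call (limma adjusted p = 0.063). The call was also lost with the mean of the mature neutrophil genes as a covariate.

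Other genes with large higher values had varied roles. Apol11b, an apolipoprotein L family member, had 5.08, 8.91 and 7.40 RPKM in CpG1668, against 3.02, 0.458 and 1.07 RPKM in Dox, and 8.15 to 17.4 RPKM in PBS. The Dox libraries were spread widely and lay below every CpG1668 library. The difference was 1.79 ± 0.36 (limma adjusted p = 0.0337), and the call was lost without any CpG1668 library, Dox 2 or Dox 3 (0.082 to 0.12). Lgals1, the lectin galectin-1, averaged 14.3 ± 0.339 RPKM in CpG1668 and 8.21 ± 1.38 RPKM in Dox (SD, n = 3 each), a difference of 0.74. Per1, a clock gene also induced by glucocorticoids, averaged 10.1 ± 1.27 RPKM in CpG1668 and 6.06 ± 0.718 RPKM in Dox, a difference of 0.66. The call of Lgals1 was lost without any of 8 libraries (limma adjusted p up to 0.14) and that of Per1 without any of 5 (up to 0.14), CpG1668 1 and Dox 2 among both. H2-Q6, a class I histocompatibility gene with near-identical neighbours that can share its reads, had 2.08, 2.28 and 2.40 RPKM in CpG1668 and 0.970, 1.28 and 1.27 RPKM in Dox. Its difference of 0.58 (adjusted p = 0.00732) held without each library, and it was the called member of 20 class I genes. The antisense transcript Gm15915, named after its values were seen, had 112, 105 and 105 RPKM in CpG1668 and 78.1, 80.8 and 80.4 RPKM in Dox. Whether the counting used strand is not given in the sources used here, so its reads cannot be told from those of the opposite strand.

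The classical MHC class II genes H2-Aa, H2-Ab1 and H2-Eb1 were lower with CpG1668. The molecules they encode present peptides to CD4 T cells, and Cd74, the invariant chain, escorts them to the endosome. Of 9 measured of 13 listed, 4 were called lower (H2-Aa, H2-Ab1, H2-Eb1 and Cd74), 0 higher and 5 not called, against 1.21% called lower over all genes. H2-Ab1 (ENSMUSG00000073421.6, chromosome 17, 34257689 to 34269419, plus strand), the beta chain of I-A, had 1.36, 1.60 and 1.48 RPKM in CpG1668, against 6.14, 6.84 and 3.99 RPKM in Dox. H2-Aa (ENSMUSG00000036594.15, chromosome 17, 34282744 to 34287823, minus strand), its alpha chain, had 2.004, 1.46 and 2.07 RPKM in CpG1668, against 5.82, 6.34 and 4.21 RPKM in Dox. In both genes the CpG1668 libraries lay below every Dox library, and Dox 3 was the lowest of the Dox libraries. The differences were -1.40 ± 0.17 for H2-Ab1 and -1.17 ± 0.14 for H2-Aa (standard errors, limma adjusted p = 0.00488 for both). Cd74 had 7.96, 6.13 and 8.53 RPKM in CpG1668, against 23.8, 27.3 and 15.2 RPKM in Dox, with Dox 3 again the lowest of the Dox libraries. Its difference was -1.41 ± 0.22 (adjusted p = 0.0133), and H2-Eb1, the I-E beta chain, differed by -1.27 (0.00962).

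Other genes of the class II pathway were not called. Ciita, the transactivator of class II genes, was below the filter at 0.202, 0.128 and 0.126 RPKM in CpG1668, against 0.315, 0.386 and 0.246 RPKM in Dox. All CpG1668 values of Ciita lay below the Dox values, and it was not tested. The peptide loading genes H2-DMa and H2-DMb1 overlapped between groups, with differences of -0.09 and -0.13. Ctss, the cathepsin that trims the invariant chain, and Ifi30, a thiol reductase of the endosome, had differences of 0.32 and 0.17 and were not called. The H2-Aa and H2-Ab1 calls held without each library in turn, that of H2-Eb1 was lost without CpG1668 1 (limma adjusted p = 0.054), and that of Cd74 without CpG1668 1, CpG1668 2 or Dox 2 (0.052 to 0.062), without a filter (0.063) and with the mean of the mature neutrophil genes as a covariate (0.063). In CpG1668+Dox, H2-Ab1 averaged 2.69 RPKM and Cd74 12.7 RPKM, and in PBS H2-Ab1 averaged 2.35 RPKM and Cd74 9.25 RPKM. The Dox libraries were thus the high ones of the 4 groups.

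Dendritic cells are the cells best known for class II expression, and their markers other than Bst2 were at very low levels. Of 12 listed dendritic cell markers, 1 passed the filter, Bst2, which these cells held at 29.5 to 32.6 RPKM in CpG1668 and 30.8 to 33.3 RPKM in Dox. The summed level of the other 11 was 1.98 to 2.27 RPKM in CpG1668 and 2.32 to 3.40 RPKM in Dox. Of these 11, 4 were lower in CpG1668 without overlap (Cd209a, Xcr1, Clec9a and Flt3), 1 was higher without overlap and 6 overlapped. None of the 11 was tested, and among the 12139 tested genes 14.4% were lower in CpG1668 without overlap. Cd209a, a lectin of monocyte-derived dendritic cells, had 0, 0.0183 and 0.0180 RPKM in CpG1668, against 0.474, 0.498 and 0.320 RPKM in Dox. Xcr1, a receptor of cross-presenting dendritic cells, had 0.00721, 0.0390 and 0.0192 RPKM in CpG1668, against 0.211, 0.147 and 0.149 RPKM in Dox. The part of dendritic cells in the class II difference was not tested. Of 14 listed B and plasma cell genes, 1 passed the filter, the immunoglobulin heavy chain Ighm, which had 2.88, 3.46 and 3.31 RPKM in CpG1668, against 1.94, 2.37 and 1.66 RPKM in Dox. Ighm did not overlap and was not called (difference 0.50, limma adjusted p = 0.0906), and the B cell gene Ms4a1 was at 0 in CpG1668 and at most 0.00505 RPKM in Dox.

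Class II promoters carry a conserved module that ends in a Y box, a CCAAT element read in reverse, and 2 of them are shown for that element. The letters CTGATTGG, searched on both strands, were in 4.1% of 32851 RefSeq promoters. They were in both called class II genes that had a promoter entry, of the 4 genes searched, and the search was chosen after the values were seen. The stretches come from chr17:34287832-34287909 (minus strand, motif 51 bases before the start) for H2-Aa and chr17:34305770-34305847 (plus strand, 62 bases before) for H2-Eb1 in GRCm38.p6, with CTGATTGG in capitals.
H2-Aa: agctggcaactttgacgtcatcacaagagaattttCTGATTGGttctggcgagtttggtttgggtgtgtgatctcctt
H2-Eb1: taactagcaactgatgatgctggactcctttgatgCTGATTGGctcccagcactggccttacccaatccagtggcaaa

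**Figure D3:**
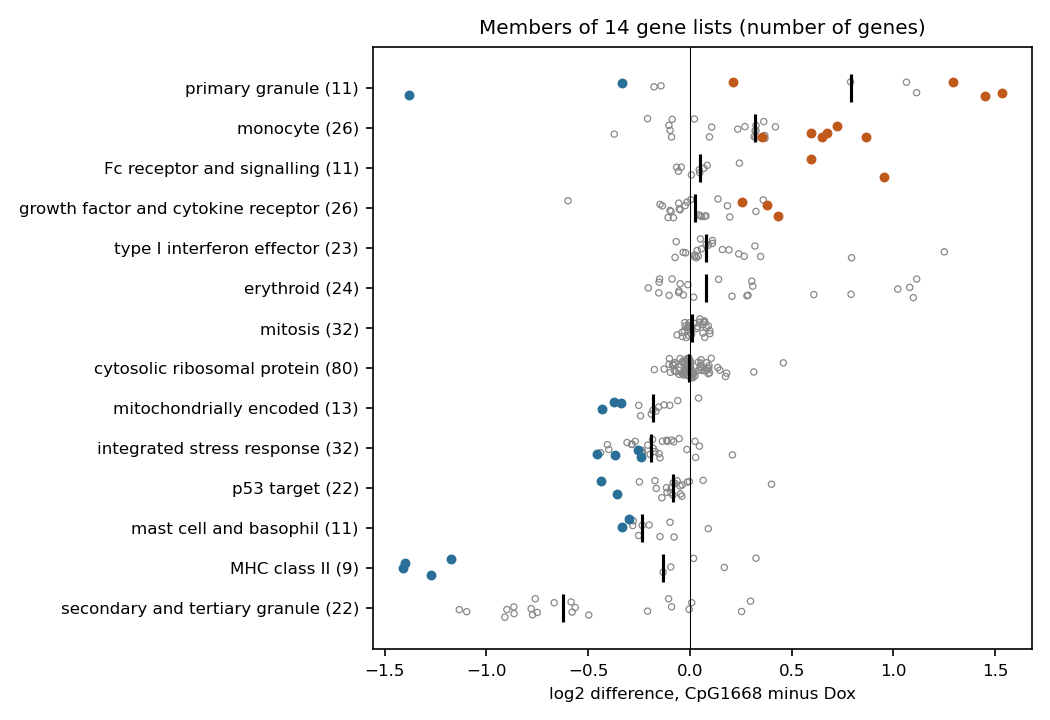
Each point is a gene of the named list, at its log2 difference (CpG1668 minus Dox, horizontal axis); filled points were called higher or lower, open points were not called, the black bar is the list median, and the number of genes is in brackets. Primary granule and monocyte lists have medians above 0, class II genes form a called cluster below -1, and late granule genes lie low without a call.

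Serpinb1a had the smallest p of the named genes. It encodes an intracellular inhibitor of the same neutral proteases, elastase, cathepsin G and proteinase 3, whose genes Ctsg and Prtn3 were higher. Serpinb1a (ENSMUSG00000044734.16, chromosome 13, 32842092 to 32851185, minus strand) had 32.2, 35.8 and 34.4 RPKM in CpG1668, against 72.0, 93.4 and 110 RPKM in Dox. The groups lay far apart, and CpG1668 was the low group of the 4, with 55.3 RPKM in CpG1668+Dox and 80.4 RPKM in PBS. The difference was -1.38 ± 0.12 (limma adjusted p = 0.00119), and the call held without each library in turn.

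Some genes of the cytoskeleton, the cell membrane and adhesion were among the lower calls, without a list that shows them as a group. Vim, Pdlim1, Tagln2, Vcl, Myo1c, Septin11 and Cdc42ep3 were named after their values were seen, and the tubulin and cytoskeleton list itself had 2 of 15 measured members called lower (Tuba1a and Tubb2b), 5 with a positive difference and a median of -0.05. Over all genes 1.21% were called lower. Ahnak, a giant scaffold protein at the plasma membrane, had 8.89, 8.77 and 7.66 RPKM in CpG1668, against 12.7, 18.9 and 19.7 RPKM in Dox. Myadm, a membrane protein involved in cell spreading, had 14.1, 13.8 and 13.7 RPKM in CpG1668, against 21.3, 28.5 and 26.3 RPKM in Dox. In both, Dox 1 was the lowest Dox library and still lay above all CpG1668 libraries. The differences were -0.92 for Ahnak (limma adjusted p = 0.0103) and -0.82 for Myadm (0.00221). Vim, the intermediate filament vimentin, had 68.9, 73.2 and 72.2 RPKM in CpG1668, against 87.5, 101 and 101 RPKM in Dox. Capn2, a calpain protease that cuts adhesion proteins, had 7.27, 7.31 and 7.19 RPKM in CpG1668, against 10.2, 10.8 and 11.5 RPKM in Dox. The groups lay apart, with differences of -0.43 for Vim (0.00488) and -0.51 for Capn2 (0.00221).

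Smaller differences were called in further genes, picked from the calls. Crip1, a LIM domain protein, differed by -0.56, Pdlim1, an actin-binding LIM protein, by -0.38, and Tagln2, an actin-binding protein, by -0.26. Itga5, the fibronectin receptor alpha chain, differed by -0.35 and was the called member of 23 leucocyte and integrin genes, whose median was -0.04. Vcl, vinculin, differed by -0.25, the unconventional myosin Myo1c by -0.22, the septin Septin11 by -0.25 and the Cdc42 effector Cdc42ep3 by -0.29. The alpha tubulin Tuba1a had 31.5, 36.1 and 34.3 RPKM in CpG1668 and 43.1, 50.4 and 54.2 RPKM in Dox, a difference of -0.52. The beta tubulin Tubb2b differed by -0.46, whereas the more abundant Tuba1b, at 615 to 635 RPKM in CpG1668 and 600 to 668 RPKM in Dox, overlapped. The calls of Ahnak, Myadm, Vim, Capn2, Crip1, Pdlim1, Septin11 and Cdc42ep3 held without each library in turn. Ahnak lost its call in the fit of the 6 compared libraries alone. That of Tagln2 was lost without CpG1668 1 (limma adjusted p = 0.066). Those of Itga5, Vcl and Tuba1a were lost without any CpG1668 library, Dox 2 or Dox 3 (up to 0.077 for Itga5, 0.066 for Vcl and 0.11 for Tuba1a). That of Myo1c was lost without CpG1668 1, CpG1668 2, Dox 2 or Dox 3 (0.052 to 0.068), and that of Tubb2b without any of 9 libraries (up to 0.14) and under median-of-ratios scaling or quantile normalization. Ahnak, Crip1, Septin11, Cdc42ep3, Tagln2, Itga5, Vcl, Tuba1a, Myo1c and Tubb2b also lost their calls when the mean of the mature neutrophil genes was a covariate.

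Some genes of the integrated stress response, through which ATF4 raises amino acid uptake and synthesis, were lower with CpG1668 by small amounts. Of 32 measured of 36 listed, 4 were called lower (Asns, Slc7a1, Pycr1 and Psat1), 0 higher, and 28 had a negative difference, with a median of -0.19. Over all genes 1.21% were called lower, 7420 of 12139 differences were negative and the median was -0.02. Asns (ENSMUSG00000029752.12, chromosome 6, 7675169 to 7693254, minus strand), asparagine synthetase, had 57.6, 58.5 and 65.3 RPKM in CpG1668, against 91.2, 85.8 and 73.9 RPKM in Dox. Pycr1, which makes proline, had 3.47, 3.74 and 3.58 RPKM in CpG1668, against 5.39, 4.86 and 4.55 RPKM in Dox. Slc7a1, a carrier of cationic amino acids, had 14.2, 13.2 and 13.9 RPKM in CpG1668, against 16.7, 16.8 and 16.4 RPKM in Dox. None of these genes overlapped between the groups, and Dox 3 was the lowest Dox library in each. The differences were -0.46 for Asns (limma adjusted p = 0.022), -0.37 for Pycr1 (0.028) and -0.25 for Slc7a1 (0.018). Psat1, a serine synthesis enzyme, differed by -0.24.

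Of called genes outside the list, 3 are given here, and their direction was fixed by the choice. Jdp2, a basic leucine zipper repressor, had 4.26, 3.70 and 4.45 RPKM in CpG1668, against 6.68, 7.52 and 6.93 RPKM in Dox (difference -0.65, limma adjusted p = 0.0121). Slc1a4, a carrier of neutral amino acids, had 5.61, 5.10 and 6.34 RPKM in CpG1668, against 8.31, 8.995 and 7.69 RPKM in Dox (-0.48, adjusted p = 0.0234). Both lay apart between the groups, and so did Pck2, mitochondrial phosphoenolpyruvate carboxykinase (-0.36), which was named after its values were seen. Atf4 itself overlapped, at 101 to 132 RPKM in CpG1668 and 106 to 127 RPKM in Dox, and so did the stress factor Ddit3. Leaving out CpG1668 1, CpG1668 2 or Dox 2 ended the calls of Asns (limma adjusted p 0.070 to 0.10), Slc7a1 (0.056 to 0.072), Jdp2 (0.052 to 0.056) and Slc1a4 (0.074 to 0.095). Pck2 and Pycr1 lost their calls without these libraries or Dox 1, and Pycr1 also without CpG1668 3, with adjusted p up to 0.11 for Pck2 and 0.12 for Pycr1. Under the 12 omissions the list's count of lower calls ran from 0 to 5. The mature neutrophil covariate also ended the calls of Asns, Slc7a1, Pycr1, Jdp2, Slc1a4 and Pck2.

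ATF4 with a C/EBP partner is known to bind the composite letters TGATGNAA, which were searched in these promoters on both strands, with N any base. They were in 3.97% of 32851 RefSeq promoters and in 5 of 8 genes searched (Asns, Pycr1, Jdp2, Pck2 and Slc1a4), which were chosen after their values were seen. They were not found in the windows of Psat1, Slc7a1 and Bbc3. Jdp2 had them in 1 of its 3 windows. The share over all promoters counts windows, whereas the count of searched genes does not. The stretches come from chr11:120643809-120643886 (minus strand, motif 103 bases before the start) for Pycr1 and chr12:85599348-85599425 (plus strand, 33 bases before) for Jdp2 in GRCm38.p6, with the motif in capitals.
Pycr1: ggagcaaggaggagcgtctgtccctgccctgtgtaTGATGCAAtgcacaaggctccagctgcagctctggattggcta
Jdp2: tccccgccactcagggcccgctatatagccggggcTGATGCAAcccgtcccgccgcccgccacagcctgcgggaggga

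Mitochondrially encoded genes, which specify core subunits of the respiratory chain, tended lower with CpG1668. Of 13 genes, 3 were called lower (mt-Cytb, mt-Co2 and mt-Nd3), 0 higher, and 12 had a negative difference, with a median of -0.18. Among all genes 1.21% were called lower. Their summed level was 23944 to 26036 RPKM in CpG1668 and 27299 to 29541 RPKM in Dox, without overlap. For mt-Cytb, cytochrome b, the mean was 2586 ± 32.3 RPKM in CpG1668 and 3486 ± 8.50 RPKM in Dox (SD, n = 3 each). The mt-Cytb difference was -0.43 (limma adjusted p = 0.0103), and its call held without each library in turn but was lost without a filter (0.16) and with the mature neutrophil covariate (0.084). The calls of mt-Co2 and mt-Nd3, subunits of complexes IV and I, were lost under median-of-ratios scaling and under quantile normalization. They were also lost without any 1 of the 6 compared libraries and without some others, with limma adjusted p up to 0.13 for mt-Co2 and 0.15 for mt-Nd3. Of 79 measured nuclear genes of the respiratory chain, limma called 0 (6 at an unadjusted p under 0.05, 1 higher and 5 lower), with a median of -0.03.

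Mast cell and basophil genes leaned lower with CpG1668, with 2 of 11 measured members called lower, 0 higher and a median of -0.23. The share called lower over all genes was 1.21%. Gata2, a transcription factor of stem, mast and basophil cells, had 19.5, 20.7 and 19.97 RPKM in CpG1668, against 23.1, 25.5 and 26.2 RPKM in Dox (difference -0.30, limma adjusted p = 0.013). Hdc, which makes histamine, had 17.3, 20.2 and 18.6 RPKM in CpG1668, against 23.7, 22.7 and 25.1 RPKM in Dox (-0.33, adjusted p = 0.033). Both genes lay apart between the groups. Mcpt1, a mast cell protease named after its values were seen, differed by -0.81, at 0.982, 1.40 and 0.985 RPKM in CpG1668 and 3.55, 2.10 and 2.59 RPKM in Dox. The Gata2 call was lost without CpG1668 1 or Dox 2 (limma adjusted p 0.061 to 0.073), and those of Hdc and Mcpt1 without CpG1668 1, CpG1668 3 or Dox 3, among others, with adjusted p up to 0.14 for Hdc and 0.099 for Mcpt1. The calls of Gata2 and Hdc were also lost with the mature neutrophil covariate, and that of Hdc under both other scalings. Cpa3, the mast cell carboxypeptidase, overlapped, at 394 to 431 RPKM in CpG1668 and 406 to 559 RPKM in Dox.

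Targets of p53 were called lower in 2 of 22 measured members and higher in 0, against 1.21% called lower over all genes. Perp, a membrane effector of p53, had 20.4, 21.996 and 18.6 RPKM in CpG1668, against 25.7, 26.4 and 26.8 RPKM in Dox (difference -0.36, limma adjusted p = 0.0103). Bbc3, the death-promoting BCL2 family member PUMA, had 7.38, 8.76 and 8.999 RPKM in CpG1668, against 11.9, 11.4 and 11.7 RPKM in Dox (-0.44, adjusted p = 0.0327). Both lay apart, while Bax and the cyclin Ccng1 were not called, with differences of -0.09 and -0.12. The Perp call was lost without CpG1668 1 (limma adjusted p = 0.054) and that of Bbc3 without any 1 of the 6 compared libraries or CpG1668+Dox 1 (0.052 to 0.13). A fit of the 6 compared libraries alone also ended the Perp call. Among metabolic genes, Pfkp, the platelet isoform of phosphofructokinase, was the called member of 24 hypoxia and glycolysis genes. It had 24.2, 24.2 and 24.4 RPKM in CpG1668 and 29.2, 28.6 and 29.4 RPKM in Dox (-0.25), and its call held without each library in turn.

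Late neutrophil genes had large differences without a call, and the Dox libraries differed widely among themselves. Of 22 measured members of the secondary and tertiary granule list, limma called 0 (3 at an unadjusted p under 0.05, all lower). A negative difference was found in 19, and the median was -0.63. S100a8, a subunit of calprotectin, had 155, 148 and 190 RPKM in CpG1668, against 136, 315 and 614 RPKM in Dox. Dox 1 lay below all CpG1668 libraries and Dox 3 far above them, so the groups overlapped. The S100a8 difference was -0.86 ± 0.49 (limma adjusted p = 0.442). Ltf, lactoferrin, had 19.98, 22.6 and 28.9 RPKM in CpG1668 and 21.2, 45.4 and 85.8 RPKM in Dox. The matrix protease Mmp9 had 1.67, 1.56 and 2.33 RPKM in CpG1668 and 2.80, 4.34 and 9.96 RPKM in Dox, and Cxcr2, the chemokine receptor of mature neutrophils, 0.874, 0.874 and 1.31 RPKM in CpG1668 and 1.86, 2.29 and 5.88 RPKM in Dox. Mmp9 and Cxcr2 did not overlap and were not called (limma adjusted p = 0.12 and 0.11). Without Dox 1 the Mmp9 difference was -1.43 (adjusted p = 0.039) and that of S100a8 was -1.43 (0.135). The summed level of 14 mature neutrophil genes was 28.4 to 39.8 RPKM in CpG1668 and 37.5 to 102 RPKM in Dox. With their mean as a covariate, 51 genes were called in the whole comparison, 31 higher and 20 lower, so that higher calls made up 60.8% of them. Among the higher genes described above and below, the covariate ended the calls of Ctsc, Klf4, Ms4a6c, Il10ra, Il6st, Ccl9, Cxcr4, Apol11b, Per1 and Gbp3. Still called were Ctsg, Mpo, Prtn3, F13a1, Tgfbi, Plac8, Fcgr1, Fcgr4, Il4ra, Lgals1, H2-Q6 and Gm15915.

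Erythroid genes also varied widely among the libraries of a group. Of 24 measured members limma called 0 (8 at an unadjusted p under 0.05, 5 higher and 3 lower), and the median was 0.08. Hbb-bs, a beta globin, had 1974, 3127 and 3572 RPKM in CpG1668, against 2328, 779 and 1287 RPKM in Dox. Alas2, which starts haem synthesis in red cells, had 23.1, 37.9 and 43.5 RPKM in CpG1668, against 29.9, 7.87 and 13.98 RPKM in Dox. In both, Dox 2 and Dox 3 lay below all CpG1668 libraries and Dox 1 among them. The differences were 1.08 for Hbb-bs (limma adjusted p = 0.189) and 1.11 for Alas2 (0.217), and without Dox 1 they were 1.49 (0.066) and 1.59 (0.062). In PBS both were higher, with Alas2 at 78.7 RPKM.

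**Figure D4:**
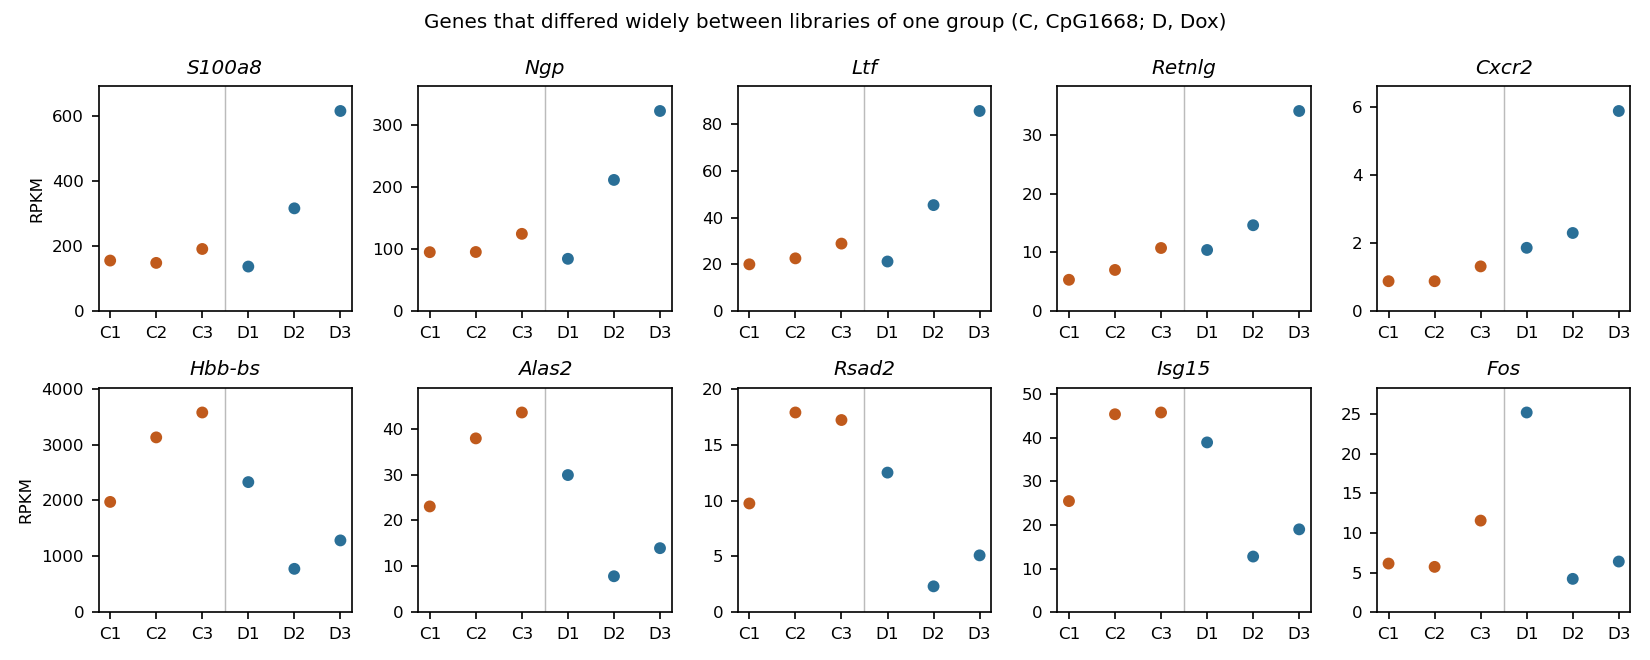
RPKM (vertical axes, from 0) of 10 genes in each CpG1668 library (C1 to C3) and Dox library (D1 to D3). Dox 3 is the highest library for the neutrophil genes of the upper row, Dox 1 is close to the CpG1668 libraries for most genes, and none of the 10 genes was called.

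Interferon genes and the TLR9 pathway had no called members between the single treatments, apart from 1 interferon-inducible GTPase. Of 23 measured type I interferon effectors limma called 0 and 19 had a positive difference, with a median of 0.08. At an unadjusted limma p under 0.05 there were 6 effectors, all higher with CpG1668. Over the 12139 genes, 452 were higher and 1396 lower at that threshold. Rsad2, viperin, had 9.74, 17.9 and 17.2 RPKM in CpG1668, against 12.5, 2.33 and 5.10 RPKM in Dox, and 24 to 39.1 RPKM in PBS. Isg15, a ubiquitin-like protein, had 25.5, 45.4 and 45.8 RPKM in CpG1668, against 38.9, 12.8 and 19.0 RPKM in Dox. Dox 1 lay within the CpG1668 range for both, so the groups overlapped. The Rsad2 difference was 1.25 ± 0.42 (limma adjusted p = 0.173), and it passed without Dox 1, at 1.78 (adjusted p = 0.031). Gbp3, the called GTPase of 8 measured, had 1.42, 1.42 and 1.18 RPKM in CpG1668 and 0.735, 0.652 and 0.663 RPKM in Dox (difference 0.48, adjusted p = 0.00732). Its groups lay apart, and the call was lost in the fit of the 6 libraries alone and with the mature neutrophil covariate. The Dox level lay below the filter of 1 RPKM, so Gbp3 passed the filter only through its CpG1668 level. Without any 1 of the CpG1668 libraries it fell below the filter and was not tested.

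In the TLR9 pathway list limma called 0 of 24 measured members (5 at an unadjusted p under 0.05), with a median of 0.02, and in the list of NF-kappaB subunits and feedback genes 0 of 22 (4), with a median of -0.02. Of the 5 genes 3 were higher with CpG1668, and of the 4 genes 1 was. Tlr9 itself was below the filter, at 0.332, 0.358 and 0.287 RPKM in CpG1668, against 0.180, 0.236 and 0.173 RPKM in Dox, and was not tested. The CpG1668 values lay above the Dox values. Unc93b1, which carries TLR9 to endosomes, had 6.00, 5.94 and 5.86 RPKM in CpG1668, against 4.01, 4.78 and 4.52 RPKM in Dox (difference 0.35, limma adjusted p = 0.11). The adaptor Myd88 overlapped, at 28.3 to 29.7 RPKM in CpG1668 and 28.4 to 28.7 RPKM in Dox, while the NF-kappaB subunit Nfkb1 lay just apart without a call, at 22.3 to 22.8 RPKM in CpG1668 and 23 to 24.5 RPKM in Dox.

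Proliferation and protein synthesis genes showed no called member in either direction. By limma the counts were 0 of 37 for DNA replication, 0 of 32 for mitosis, 0 of 80 for cytosolic and 0 of 74 for mitochondrial ribosomal proteins, 0 of 37 for the proteasome and 0 of 17 for heat shock. At an unadjusted p under 0.05 they were 6, 0, 9, 5, 0 and 1 in that order, of which 1, 0, 6, 0, 0 and 0 were higher. The medians of these lists lay between -0.03 and 0.01. Mki67, a marker of cycling cells, had 98.5 to 120 RPKM in CpG1668 and 101 to 109 RPKM in Dox. The fusion partner gene Cbfb overlapped, at 29.4 to 31.5 RPKM in CpG1668 and 30.8 to 32.2 RPKM in Dox (difference -0.06), and so did Spi1, the gene of PU.1 (-0.02). Immediate-early genes, which rise when cells are handled, summed to 250, 273 and 399 RPKM in CpG1668 and to 468, 234 and 301 RPKM in Dox, with Dox 1 and CpG1668 3 the high libraries. Klf4 was the called member of 26 on that list, and the part of handling in its difference was not tested.

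The levels in the other groups placed the called genes as follows, beside values that share no test with the comparison. Of the 42 genes higher with CpG1668, the PBS mean was below both single treatments in 33, between them in 6 and above both in 3, and the CpG1668+Dox mean was beyond the CpG1668 mean in 29. Of the 147 genes lower with CpG1668, the PBS mean was between the single treatments in 134, below both in 5 and above both in 8, and the CpG1668+Dox mean was below the CpG1668 mean in 10. Tgfbi, for example, averaged 10.4 RPKM in CpG1668, 6.12 RPKM in Dox, 17.9 RPKM in CpG1668+Dox and 1.68 RPKM in PBS. Serpinb1a averaged 34.1 RPKM in CpG1668, 91.8 RPKM in Dox, 55.3 RPKM in CpG1668+Dox and 80.4 RPKM in PBS. These 4 groups share libraries with the fit, and no test of the placement was made. The genes were chosen for a gap between CpG1668 and Dox, and that choice itself favours a PBS mean between them. The placement was not counted over all genes, so the counts describe the called genes only.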

How the data were processed

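RNA of sorted mouse leukaemia cells was sequenced in 12 libraries, 3 in each of 4 groups taken from the sample titles. The deposited files hold RPKM values for 33531 gene symbols. STAR 2.7.9, Partek 7.18.0723 and the build mm10 are listed in the submitters' processing notes, without their roles. Annotation, filters, strand and quantification were not given in the sources used here. Depth was estimated from the step that 1 read makes in genes with a single transcript, where 72.2% to 73.5% of genes lay within 0.05 of a whole read. This covers counting error only, and reads without molecular identifiers are not independent molecules.

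Genes were kept where the CpG1668 and Dox libraries averaged 1 RPKM or more (6 libraries). Values of log2(RPKM + 1) of all 12 libraries were fitted with limma 3.58.1 in R 4.3.3 as 4 group means (residual degrees of freedom 8) and an intensity trend, and CpG1668 minus Dox was tested with Benjamini-Hochberg adjustment. Exact permutation of 3 against 3 libraries was not used, since it cannot reach 0.05. Named genes were Stat3, Irf8, Tlr9, Cbfb and Spi1, the 12 largest differences in each direction among called, non-overlapping genes averaging 5 RPKM or more where higher, and up to 3 called members per direction and the 2 highest members of each list. Where a list had no called member, its 2 smallest p could be named. Predicted models were left out of the largest differences. Genes outside this are marked as named after their values were seen, and the further dendritic, B and T cell, Y-linked, class II and neutrophil genes printed were chosen in that way too. The members and lists were chosen with earlier results of these data known. GENCODE M21 held 32391 of the symbols (96.6%) and gave identifiers and positions. Promoters came from RefSeq (GRCm38.p6). The fit was tested on simulated data with independent noise in each gene, so shifts shared by many genes of a library were not covered. Alternatives changed the pseudocount, filter, scaling, variance model, libraries, replicate block, weights and a neutrophil covariate.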

Additional observations from a re-analysis of the deposited data

How the results depend on the processing

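The comparison called 189 genes, 42 higher and 147 lower with CpG1668, and leaving out 1 library at a time gave 31 (without CpG1668 1) to 235 (without CpG1668+Dox 3), with 6 to 70 higher and 25 to 165 lower. Calls were 69 without CpG1668 2, 88 without CpG1668 3, 69 without Dox 2 and 76 without Dox 3. No filter gave 109 calls, 30 higher and 79 lower. A minimum mean RPKM of 5 gave 143, with 20 higher and 123 lower. Median-of-ratios scaling gave 159, with 49 higher (30.8% of calls), and quantile normalization 158, with 56 higher. The 6 compared libraries alone gave 72, with 31 higher and 41 lower. Among the higher genes described above, that fit ended the calls of Prtn3, Ctsc, Klf4, Ms4a6c, Il10ra, Il4ra, Il6st, Apol11b and Gbp3. Among the lower genes it ended those of Ahnak, Perp, Tagln2, Vcl, Myo1c, Tuba1a, Tubb2b, Asns, Pycr1, Slc1a4 and Pck2. Those of Gata2, Hdc, Mcpt1, mt-Co2 and mt-Nd3 were lost as well. Sample weights gave 347, with 82 and 265, and the mature neutrophil covariate 51, with 31 and 20. The pseudocount of 0.1 gave 184 calls and the fit without the intensity trend 186. The cause of these shifts was not tested, beyond the fewer libraries or genes in some of them. Stat3 was not called under any alternative and its difference stayed between -0.07 and -0.03 over the omitted libraries.

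Replicate numbers are shared by the groups, but the deviations of same-numbered CpG1668 and Dox libraries correlated at -0.18, -0.00 and -0.10, so the numbers were not taken to pair the samples, and not every library correlated best with its own number. With the replicate number as a block, 77 genes were called over 12 libraries (20 higher and 57 lower) and 0 over the 6 libraries alone by limma (0 higher, 0 lower), where 1339 genes had an unadjusted p under 0.05. Apart from that block on 6 libraries, Serpinb1a, Tgfbi, Gm15915, Myadm, Vim, Capn2, Pdlim1, Pfkp, Il9r and Il12rb2 were called under every alternative run. With the same exception, H2-Aa, H2-Ab1, F13a1 and H2-Q6 were called under every alternative in which they were tested. The stricter minimum mean RPKM left these genes out, so they were not tested under it. Genes below about 0.1 RPKM are at the limit of the estimated depth.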
